A study of Homo sapiens with 6 samples.

Results

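Major histocompatibility complex (MHC) class I antigen presentation was examined through 9 genes in MCF10A cells, an immortal, non-tumorigenic line of human mammary epithelium: HLA-B, HLA-C, HLA-E, HLA-F, B2M, TAP1, TAP2, PSMB8 and PSMB9. Every probe set of the array that the platform annotation assigns to 1 of these symbols alone was taken, which gave 23 of 54613 probe sets, for 9 of 19775 measured genes. The cells carried either an shRNA against FRY (shFRY, 3 samples) or a non-targeting shRNA (control, 3 samples). The FRY protein is a scaffold for NDR kinases and associates with microtubules. Both constructs were stably transfected and selected with puromycin, and each group is 1 selected clone, so the construct and the clone cannot be told apart. The shFRY clone was kept because FRY was about 60% below its level in MCF10A cells, per the labels. Both clones grew in the same mammary epithelial medium, which held pituitary extract, 20 ng/ml EGF, hydrocortisone at 5 ug/ml and insulin at 10 ug/ml. RNA was taken at 70% confluence, and within a clone the 3 samples came from different passages. The p-values therefore measure only the spread between passages of 1 clone per construct.

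Class I molecules display peptides from the inside of the cell to cytotoxic T cells. Proteasomes cut the proteins, and the inducible subunits PSMB8 and PSMB9 change the cutting preference. The transporter TAP1-TAP2 moves the peptides into the endoplasmic reticulum, where they join a heavy chain (HLA-B or HLA-C, or the nonclassical HLA-E and HLA-F) paired with beta-2-microglobulin (B2M). Epithelial cells make these genes constitutively, and interferons and NF-kB are known to raise them. Interferons act through the coactivator NLRC5 and the factors IRF1 and RFX. Except for B2M, all of the genes lie in the MHC on chromosome 6, where TAP2, PSMB8, TAP1 and PSMB9 follow one another without another protein-coding gene between them.

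The sequences just before the starts of 4 genes that rose (PSMB9, the neighbouring TAP1, its partner TAP2, and HLA-B, the heavy chain gene with the largest change) are shown, with that of B2M, which did not pass the test, for comparison. They are the 250 bases upstream of the gene start in RefSeq on GRCh38.p14, written 5′ to 3′ on the gene's strand. TAP1 and PSMB9 point away from each other with 487 bases between their starts, and their 2 stretches share 13 bases. Capitals mark each match, on either strand, to an interferon response motif (GAAA, any 2 bases, GAAA) or to the NF-kB consensus.
PSMB9, chr6:32853942-32854191, plus strand: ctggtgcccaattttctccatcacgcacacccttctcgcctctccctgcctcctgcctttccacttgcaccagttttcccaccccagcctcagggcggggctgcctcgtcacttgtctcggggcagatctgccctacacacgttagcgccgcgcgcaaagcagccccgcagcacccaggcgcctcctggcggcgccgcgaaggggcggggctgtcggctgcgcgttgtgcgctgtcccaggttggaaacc
TAP1, chr6:32853705-32853954, minus strand: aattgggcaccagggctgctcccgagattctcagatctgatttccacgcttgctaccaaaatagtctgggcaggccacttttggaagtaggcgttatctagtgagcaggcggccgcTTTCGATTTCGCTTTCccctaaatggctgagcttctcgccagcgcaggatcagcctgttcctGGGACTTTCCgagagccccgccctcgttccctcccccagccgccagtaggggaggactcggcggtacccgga
TAP2, chr6:32838740-32838989, minus strand: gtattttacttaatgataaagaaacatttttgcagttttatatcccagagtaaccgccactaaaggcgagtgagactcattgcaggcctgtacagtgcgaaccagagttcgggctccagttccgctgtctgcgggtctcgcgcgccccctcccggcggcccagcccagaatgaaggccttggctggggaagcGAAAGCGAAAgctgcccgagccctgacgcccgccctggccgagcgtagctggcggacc
HLA-B, chr6:31357180-31357429, minus strand: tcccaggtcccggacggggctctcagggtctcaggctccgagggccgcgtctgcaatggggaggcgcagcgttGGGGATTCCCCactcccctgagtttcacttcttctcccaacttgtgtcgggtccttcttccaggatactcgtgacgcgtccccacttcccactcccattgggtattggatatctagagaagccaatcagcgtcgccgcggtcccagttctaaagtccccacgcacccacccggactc
B2M, chr15:44711267-44711516, plus strand: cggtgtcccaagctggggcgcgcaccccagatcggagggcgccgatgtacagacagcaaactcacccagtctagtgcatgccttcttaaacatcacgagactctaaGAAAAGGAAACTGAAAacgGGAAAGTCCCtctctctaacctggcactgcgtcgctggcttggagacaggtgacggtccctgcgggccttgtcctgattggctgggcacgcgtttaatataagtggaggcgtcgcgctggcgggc

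The table of promoters held 8 of the 9 genes, all but HLA-E. The interferon response motif was found before the gene starts of 4 of the 8 (TAP1, TAP2, HLA-F and B2M), and in 3.71% of all 27303 genes with a stretch of this length. In TAP1 it occurs as TTTCGATTTC and TTTCGCTTTC, which overlap, and in TAP2 as GAAAGCGAAA. The NF-kB consensus was found for 4 of the 8 (HLA-B, HLA-C, TAP1 and B2M), against 6.28% of all genes. In HLA-B it occurs as the overlapping GGGGATTCCC and GGGATTCCCC, in TAP1 as GGGACTTTCC and in B2M as GGAAAGTCCC. The inverted CCAAT box ATTGG, a part of the promoter module shared by class I genes, was present on either strand in 6 of the 8 and in 37.0% of all genes. In PSMB9 the only match reads CCAAT on the gene's strand, so it is not inverted. It lies in the 13 bases shared with TAP1, so the same site counts for both genes. TGACG, the core of the CREB site in the class I promoter module, was present on either strand in 6 of the 8 and in 24.9% of all genes. These are matches of letters, not measured binding sites. A stretch without a match to these patterns can still hold a site that differs from them.

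Class I presentation genes were mostly higher in the shFRY clone. Of the 23 probe sets, 14 were higher and 1 was lower at an adjusted p under 0.05 in limma, with p-values adjusted over all 54613 probe sets, and 8 did not pass. Over all probe sets, 10.9% were called higher and 12.2% lower. At 20 of the 23 probe sets no control sample reached the range of shFRY, 19 of them with shFRY higher, whereas 39.2% of all probe sets did not overlap, 20.2% being higher. The median log2 fold change of the 23 probe sets was 0.44, and that of all probe sets 0.03. With each gene represented by its brightest probe set, 7 of the 9 genes rose (HLA-B, HLA-C, HLA-E, HLA-F, TAP1, TAP2 and PSMB9), whereas 13.7% of all 19775 genes were called higher and 29.8% were called in either direction. A log2 fold change of 1 or more was found at 4 probe sets, belonging to PSMB9, TAP2 and HLA-B.

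**Figure D1:**
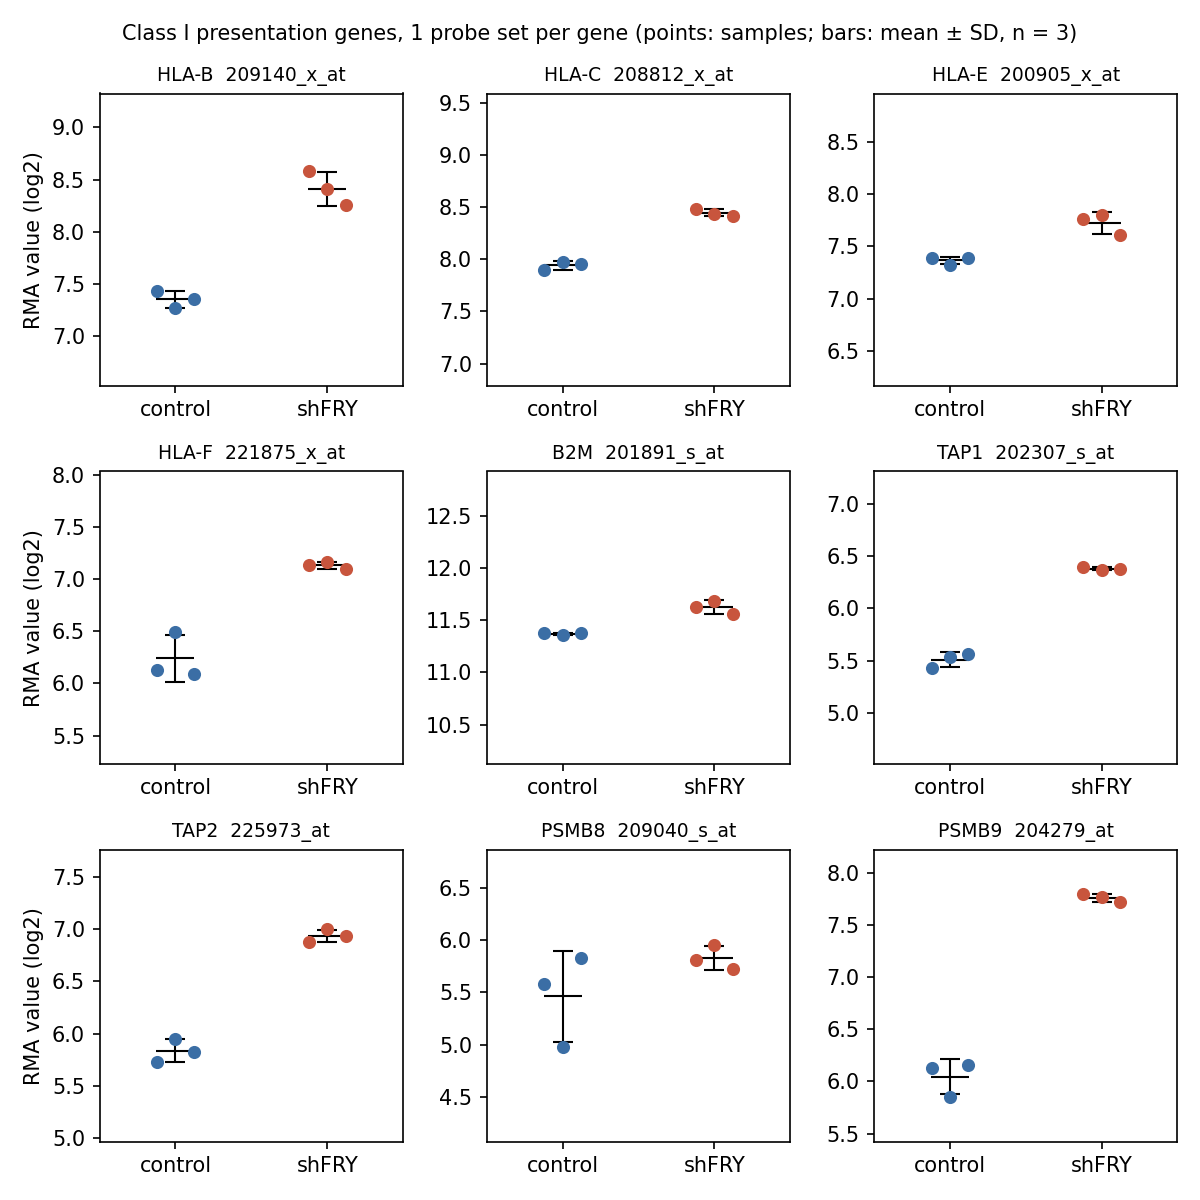
RMA values (log2) of the 9 genes, 1 probe set each, in the 3 control and the 3 shFRY samples, with the mean and SD of each group; every panel spans the same number of log2 units. The groups are apart for every gene but PSMB8, and PSMB9 shows the widest gap, from 6.05 to 7.76.

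The inducible proteasome subunit gene PSMB9 had the largest change of the 9 genes. Its probe set 204279_at read 6.13, 5.85 and 6.16 in the control samples and 7.79, 7.76 and 7.72 in the shFRY samples (log2). The 3 shFRY samples lay close together and far above every control sample. The log2 fold change was 1.71 (SE 0.12, limma adjusted p = 4.3e-05), a 3.28-fold rise with a 95% confidence interval of 1.44 to 1.98 on the log2 scale. PSMB8, the other inducible subunit gene of the MHC, read 5.58, 4.98 and 5.83 at 209040_s_at in the control samples and 5.81, 5.96 and 5.72 in the shFRY samples. Control sample 2 was low and the other samples overlapped. PSMB8 therefore did not pass (0.37, SE 0.20, limma adjusted p = 0.248), with an interval of -0.10 to 0.84, and without control sample 2 the difference was 0.13 (limma adjusted p = 0.617). The difference between PSMB9 and PSMB8 within a sample rose from 0.58 ± 0.27 (control) to 1.93 ± 0.11 (shFRY; log2, SD, n = 3 each). Its two-sided exact permutation p was 0.1, and 3 samples against 3 cannot give a smaller one.

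Both genes of the peptide transporter rose. TAP1 at 202307_s_at read 5.43, 5.54 and 5.56 in the control samples and 6.39, 6.37 and 6.38 in the shFRY samples. The shFRY samples differed among themselves by less than any of them differed from a control sample, and the log2 fold change was 0.87 (SE 0.10, limma adjusted p = 0.000515). TAP1 starts at the other end of the stretch that separates it from PSMB9, and PSMB9 changed by 0.84 more on the log2 scale (two-sided exact permutation p = 0.1).

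TAP2 was read by 4 probe sets, which did not all point one way. At 225973_at the control samples were at 5.73, 5.95 and 5.83 and the shFRY samples at 6.88, 6.998 and 6.93, which is a difference of 1.10 (log2, SE 0.11; limma adjusted p = 0.000249). At 204770_at they were at 5.41, 5.76 and 5.59 against 6.68, 6.73 and 6.95, which is a difference of 1.20 (log2, SE 0.13; limma adjusted p = 0.00042). Both probe sets put every shFRY sample far above every control sample. A smaller rise was found at 204769_s_at, from 4.40, 3.98 and 4.29 to 4.87, 4.58 and 4.90 (log2 fold change 0.56, limma adjusted p = 0.0258). Leaving out control sample 2, control sample 3, shFRY sample 1 or shFRY sample 3 ended that call (limma adjusted p = 0.0852, 0.0555, 0.0754 and 0.0722). The last, 208428_at, fell by 0.47 on the log2 scale (limma adjusted p = 0.0422), from 2.41, 2.19 and 2.13 to 1.58, 1.997 and 1.74. All of these readings lie below 3.04, the median of all values. Its call was also lost when any sample but shFRY sample 2 was left out, with limma adjusted p-values of 0.139, 0.0875 and 0.0648 without control sample 1, 2 or 3, and 0.118 and 0.0928 without shFRY sample 1 or 3.

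**Figure D2:**
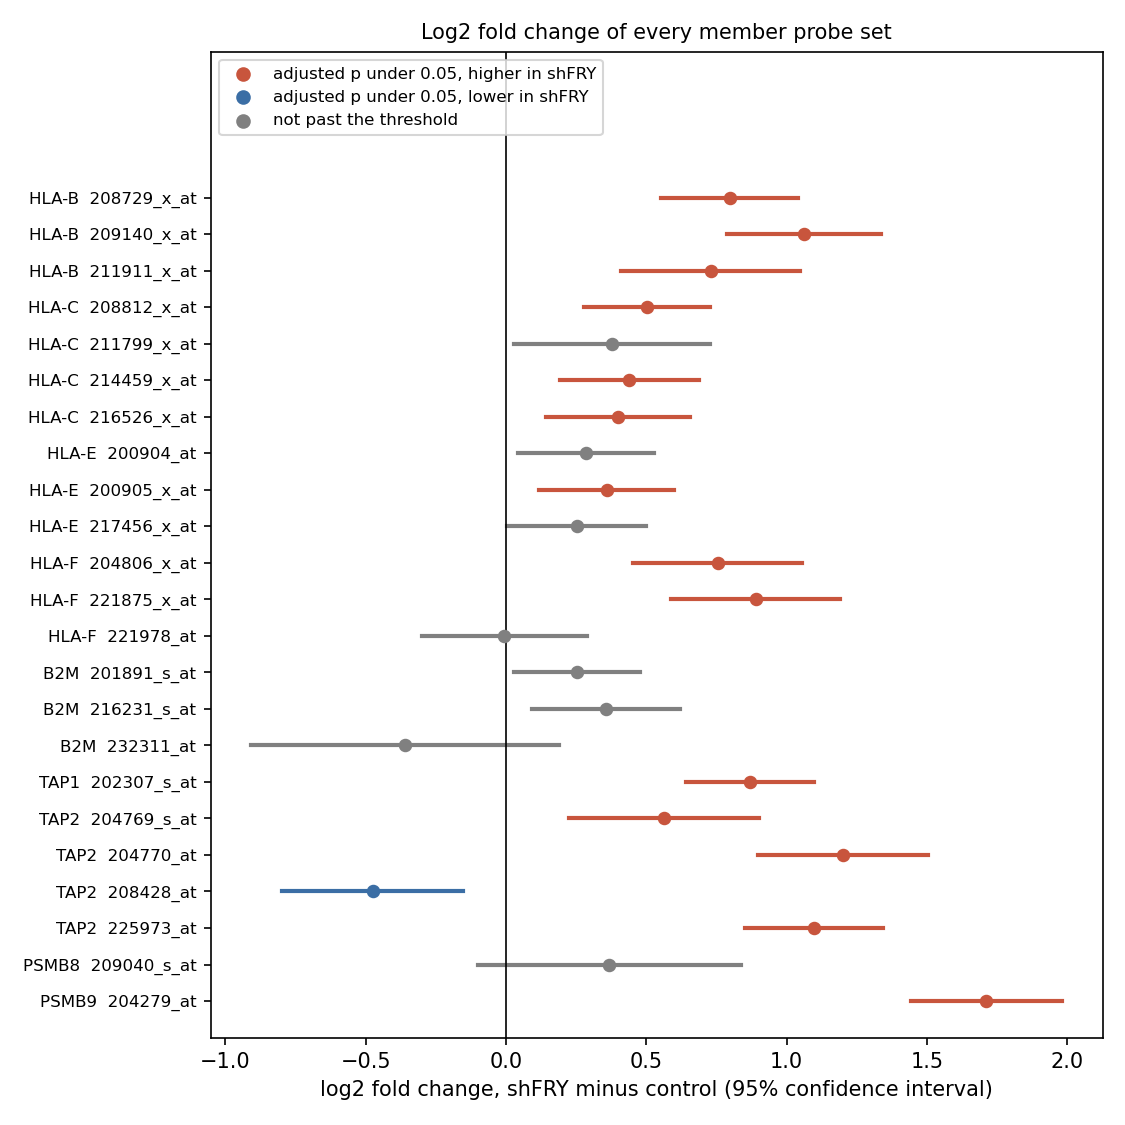
Log2 fold change (shFRY minus control) of each of the 23 probe sets with its 95% confidence interval; colours show the side of the adjusted p threshold of 0.05. The 3 HLA-B probe sets, TAP1, PSMB9 and 3 of the 4 TAP2 probe sets lie to the right of 0, and the points left of 0 belong to HLA-F 221978_at, B2M 232311_at and TAP2 208428_at.

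Among the heavy chain genes, HLA-B changed most and its 3 probe sets moved together. HLA-B, a classical class I heavy chain, read 7.43, 7.27 and 7.36 at 209140_x_at in the control samples and 8.58, 8.41 and 8.25 in the shFRY samples. No sample of one group reached the other, and the log2 fold change was 1.06 (SE 0.12, limma adjusted p = 0.000482). At 208729_x_at the control samples were at 6.48, 6.38 and 6.58 and the shFRY samples at 7.35, 7.25 and 7.23 (0.80, limma adjusted p = 0.00112). At 211911_x_at they were at 6.52, 6.34 and 6.58 against 7.44, 7.20 and 6.99 (0.73, limma adjusted p = 0.0064). The 3 HLA-B probe sets are all of the _x_at kind, whose probes can also bind similar transcripts, and 11 of the 23 member probe sets are of that kind. Class I heavy chain genes are near-identical over long stretches, so signal from one can count for another. Among all 4207 probe sets ending in _x_at, 9.51% were called higher.

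HLA-C, the other classical heavy chain gene examined, rose at 3 of its 4 probe sets. At 208812_x_at the control samples read 7.89, 7.97 and 7.96 and the shFRY samples 8.48, 8.43 and 8.42, which is a difference of 0.50 (log2, SE 0.10; limma adjusted p = 0.00681). The spread within either group was small against this difference. At 214459_x_at and 216526_x_at the log2 fold changes were 0.44 and 0.40 (limma adjusted p = 0.0196 and 0.034). The first of these calls was lost without control sample 2 or 3 or shFRY sample 1 or 2 (limma adjusted p = 0.0755, 0.0608, 0.0558 and 0.0607). The second was lost without control sample 2 or 3 or shFRY sample 1 or 3 (0.119, 0.0948, 0.0934 and 0.0667, limma adjusted p), and after repeated quantile normalization (0.0512, limma adjusted p). The remaining probe set, 211799_x_at, differed by 0.38 and did not pass (limma adjusted p = 0.116), although its groups did not overlap. Without control sample 1 its difference was 0.24 (limma adjusted p = 0.309).

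The nonclassical genes differed in size. HLA-F, a heavy chain found mainly inside cells and on activated ones, rose at 221875_x_at from 6.13, 6.50 and 6.09 in the control samples to 7.13, 7.17 and 7.10 in the shFRY samples (0.89, SE 0.13, limma adjusted p = 0.00184). At 204806_x_at it rose from 5.01, 5.26 and 5.28 to 5.99, 6.07 and 5.75 (0.75, limma adjusted p = 0.00407). Both put all shFRY samples above all control samples. The remaining HLA-F probe set, 221978_at, showed no such gap, with 2.72 to 2.87 in the control samples and 2.59 to 2.98 in the shFRY samples (-0.01, limma adjusted p = 0.979). Those readings are below the median of all values, as for the TAP2 probe set that fell.

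HLA-E, which presents leader peptides of other class I chains to natural killer (NK) cells, rose at 1 of its 3 probe sets. At 200905_x_at the control samples read 7.39, 7.32 and 7.39 and the shFRY samples 7.76, 7.80 and 7.61 (0.36, SE 0.10, limma adjusted p = 0.0399). The call passed only narrowly: without control sample 1, 2 or 3 the limma adjusted p was 0.0912, 0.122 and 0.0939, without shFRY sample 1 or 2 it was 0.0942 and 0.115, with the replicate number as a block 0.0818, and after repeated quantile normalization 0.0718. The other 2 probe sets, 200904_at (0.29, limma adjusted p = 0.0908) and 217456_x_at (0.25, limma adjusted p = 0.137), did not overlap between the groups but missed the threshold. The HLA-B value minus the HLA-E value of a sample was -0.01 ± 0.05 for control and 0.69 ± 0.11 for shFRY (log2, SD, n = 3 each; exact permutation, two-sided p = 0.1).

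B2M, the light chain common to all class I molecules, did not pass at any of its 3 probe sets. At 201891_s_at the control samples read 11.37, 11.36 and 11.37 and the shFRY samples 11.63, 11.69 and 11.55, with no overlap. The log2 fold change of 0.25 had an interval of 0.03 to 0.48 (limma adjusted p = 0.106). At 216231_s_at they read 8.10, 7.97 and 7.96 against 8.51, 8.37 and 8.22. That difference of 0.36 also had no overlap but missed the threshold (limma adjusted p = 0.0573), and without shFRY sample 3 it passed (0.43, limma adjusted p = 0.04). The dimmest, 232311_at, went the other way without passing, at 3.68, 3.90 and 3.65 in the control samples and 3.73, 3.65 and 2.77 in the shFRY samples (-0.36, limma adjusted p = 0.336). Its shFRY sample 3 lay well below the other samples, and without it the difference was -0.05 (limma adjusted p = 0.811). Within a sample, HLA-B gained 0.81 on B2M in the shFRY clone (two-sided exact permutation p = 0.1). All 4 such differences between members were chosen after their values were seen, and each had an adjusted p of 0.1 (exact permutation, Benjamini-Hochberg).

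The inducible proteasome subunits each replace a constitutive one, PSMB8 that of PSMB5, PSMB9 that of PSMB6 and PSMB10 that of PSMB7. The 3 pairs did not move alike. PSMB9 minus PSMB6 went from -3.64, -3.71 and -3.42 in the control samples to -1.67, -1.59 and -1.63 in the shFRY samples, a shift of 1.96 on the log2 scale. PSMB8 minus PSMB5 went from -4.30, -4.86 and -4.06 to -3.60, -3.56 and -3.77, a shift of 0.76, to which the fall of PSMB5 (-0.39, limma adjusted p = 0.0129 over genes) contributed. Without control sample 2 this shift was 0.54. PSMB10, encoded outside the MHC, fell by 0.89 on the log2 scale (limma adjusted p = 0.000242 over genes), and PSMB10 minus PSMB7 went from -5.36, -5.45 and -5.36 to -6.32, -6.35 and -6.28. Its shift of -0.93 opposed those of PSMB9 and PSMB8. None of the pairs overlapped between the groups, and each had a two-sided exact permutation p of 0.1 and an adjusted p of 0.1 over the 3. PSMB6 (-0.25, limma adjusted p = 0.146) and PSMB7 (0.04, limma adjusted p = 0.811) did not pass over probe sets.

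**Figure D3:**
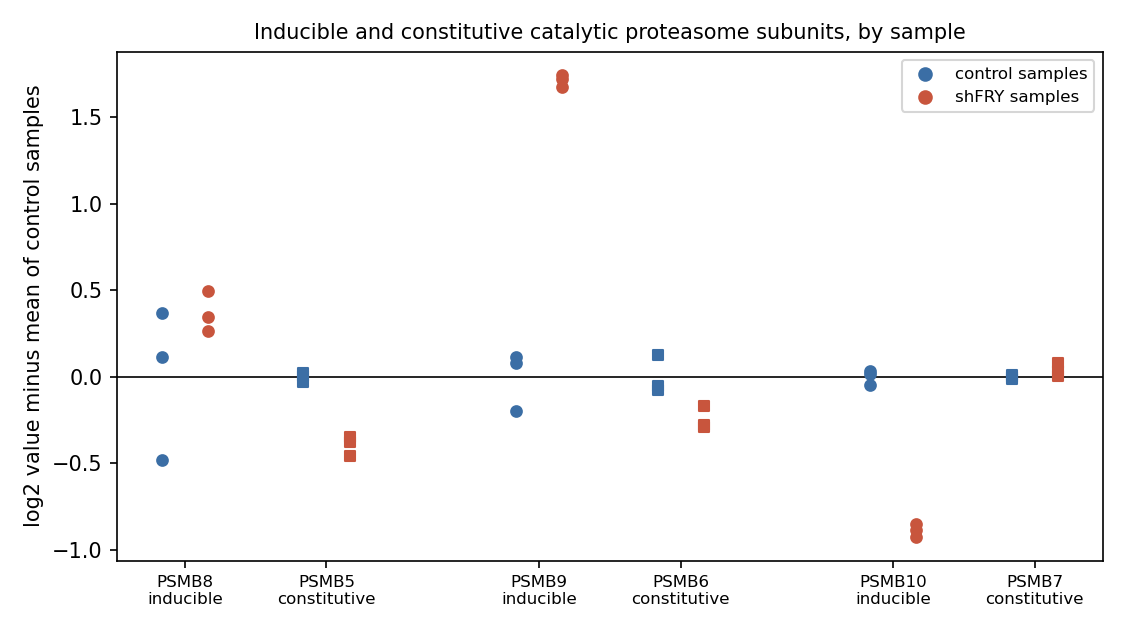
Values of the 3 inducible (circles) and 3 constitutive (squares) catalytic subunit genes in each sample, as log2 difference from the mean of the control samples. The shFRY samples of PSMB9 lie far above the controls and those of PSMB10 far below, while PSMB8 overlaps.

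Other genes of the pathway went both ways. Of 17 measured genes for peptide loading and trimming outside the 9, 2 rose, 3 fell and 12 did not pass, with a median log2 fold change of 0.12, against 0.03 for all genes and 0.87 for the 9. For this list and those that follow, the shares over all genes are 13.7% called higher and 16.0% called lower. UGGT1, which checks the folding of glycoproteins, rose by 0.57 (limma adjusted p = 0.0185), and TPP2, a cytosolic peptidase gene, by 0.40 (limma adjusted p = 0.0287). Besides PSMB10, the aminopeptidase gene NPEPPS (-0.64, limma adjusted p = 0.00279) and the chaperone gene CALR (-0.52, limma adjusted p = 0.0184) fell. HLA-G, a heavy chain gene known from the placenta, did not pass at any of its 4 probe sets, all of the _x_at kind, with log2 fold changes from 0.01 to 0.33. TAPBP, which encodes the loading factor tapasin, did not pass at any of its 3 (0.17, 0.18 and -0.53, limma adjusted p = 0.39, 0.477 and 0.087 over probe sets).

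Genes of class I transcription and of interferon signalling (receptors, kinases and their inhibitors) were counted together. Of 22 measured, 8 rose, 1 fell and 13 did not pass, with a median of 0.26. CREB1, which binds the class I promoter module, rose most (1.31, limma adjusted p = 4.13e-05) and was called higher at all 7 of its probe sets. Both interferon-gamma receptor genes rose, IFNGR2 by 1.20 and IFNGR1 by 1.07 (limma adjusted p = 0.000438 and 0.000481), as did the NF-kB subunit gene NFKB1 (1.14, limma adjusted p = 0.000126). IRF1, an interferon-induced activator of class I genes, was called higher at both of its probe sets (0.47 and 0.74, limma adjusted p = 0.025 and 0.0174 over probe sets). Both were dim, with control means of 3.41 and 2.78, near 3.04, the median of all values. Of the RFX genes, whose products bind the class I promoter module, RFXAP fell (-0.44, limma adjusted p = 0.0257), and RFX5 (-0.31) and RFXANK (-0.14) did not pass. The coactivator gene NLRC5 did not pass (0.38, limma adjusted p = 0.443 over probe sets, interval -0.35 to 1.11), and its readings were near the median of all values.

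Interferon-inducible genes went both ways, with more of them higher than lower. Of 39 measured, 11 rose, 4 fell and 24 did not pass, with a median of 0.18. Over all genes 13.7% were called higher and 16.0% lower. Of the 39, 14 lay below the median of all values in every sample. The genes named next are those with the largest changes among the called ones. ISG20, an exonuclease gene, rose by 2.41 and the RNA sensor gene RIGI by 1.397 (limma adjusted p = 0.000231 and 0.000639). The antiviral oligoadenylate synthetase genes OAS1 (-2.12, limma adjusted p = 0.000237) and OAS3 (-1.23, limma adjusted p = 0.00564) fell. The part of interferon signalling in the class I results was not tested.

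Class I-like genes and ligands of NK receptors, some of them neighbours of HLA-B, split both ways. Of 12 measured, 3 rose, 4 fell and 5 did not pass, with a median of -0.02. MICB, a stress ligand of the NK receptor NKG2D whose gene lies in the MHC near HLA-B, fell from 7.46 ± 0.15 to 4.97 ± 0.39 (SD, n = 3 each; -2.48, limma adjusted p = 6.21e-05). ULBP3, another NKG2D ligand gene, fell (-1.23, limma adjusted p = 0.00708), as did HFE, a class I-like regulator of iron uptake (-1.15, limma adjusted p = 0.0145). PROCR, the class I-like receptor of protein C, rose by 1.74 (limma adjusted p = 1.15e-05).

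Genes of MHC class II presentation were dim. Of 13 measured, 9 lay below the median of all values in every sample, 2 rose, 1 fell and 10 did not pass. HLA-DRA (0.46, limma adjusted p = 0.0269) and HLA-DOA (0.38, limma adjusted p = 0.0179) rose slightly, and the class II activator gene CIITA fell by 0.90 on the log2 scale (limma adjusted p = 0.0443), a call that was not made over probe sets (0.0525, limma adjusted p). Of 14 genes of the constitutive proteasome core and its assembly factor, 0 rose and 4 fell (PSMB3 by 0.71, PSMB5 by 0.39, PSMA2 by 0.39 and PSMB2 by 0.35), with a median of -0.19.

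**Figure D4:**
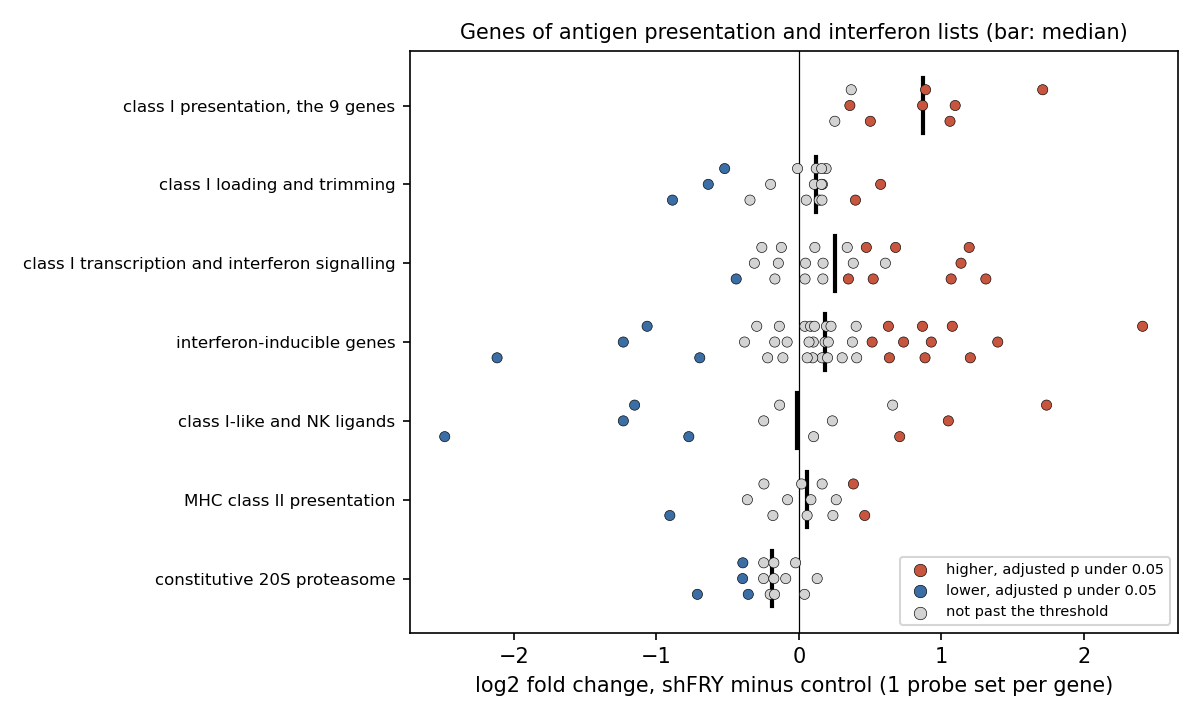
Log2 fold changes (shFRY minus control, 1 probe set per gene) of the 9 class I presentation genes and of 6 related lists; points are genes, bars are medians and colours show the side of the adjusted p threshold of 0.05. The 9 genes all lie right of 0 with a median of 0.87, while the medians of the other lists lie between -0.19 and 0.26.

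Over the 6 samples, the genes whose pattern was most like that of HLA-B were GTF2IRD1, ZFAS1 and OPTN (Pearson r = 0.9990, 0.9988 and 0.9986), and those most like TAP1 were CHIC2, IFI16 and PIK3CD (r = 0.9998, 0.9998 and 0.9990). IFI16, an interferon-inducible DNA sensor gene, rose by 1.08. These values mostly reflect the gap between the 2 groups: 1257 and 1427 genes had an r above 0.95 with HLA-B and with TAP1.

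Some features of the samples moved with the group. The beta-actin control probe sets, which depend on how far the labelled RNA reaches towards its 5′ end, gave 3′ minus 5′ values of 2.33, 2.52 and 2.71 in control and of 2.88, 2.89 and 2.84 in shFRY (two-sided exact permutation p = 0.1). For GAPDH the same values were -0.09 ± 0.01 in control and -0.07 ± 0.03 in shFRY (SD, n = 3 each; exact permutation, two-sided p = 0.4). With the beta-actin difference as a covariate, 1 of the 23 probe sets passed, that of PSMB9 (1.67, limma adjusted p = 0.0181), while the calls over all probe sets went from 12617 to 1677. The part of RNA length in the class I results was not tested beyond this fit. The median log2 fold change of the 14 probe sets called higher was 0.78 without and 0.70 with the covariate, and all 14 stayed above 0. These 14 were picked for being higher in these same samples, so this is not a test of the part of RNA length. In the comparison by gene, PSMB9 (1.67), HLA-B (1.10) and TAP2 (1.003) passed with it (limma adjusted p = 0.0121, 0.0475 and 0.0417), and TAP1 (0.75) did not (0.0679, limma adjusted p).

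Within a group the samples correlated at r = 0.992 to 0.995 over probe sets, and between groups at 0.972 to 0.978. FRY was lower at 204072_s_at in the shFRY samples (-0.75, limma adjusted p = 0.0223), and its other 3 probe sets, at -0.32 to -0.49, did not pass. Of the 7 measured epithelial markers of the line, which are basal ones together with CDH1 and EPCAM, 5 rose and 0 fell. Over all genes 13.7% were called higher. The 5 were KRT14 (2.92), ITGB4 (1.16), EGFR (0.75), CDH3 (0.63) and CDH1 (0.37). KRT5, CDH1 and EPCAM read 10 or more in both groups, as the label of a mammary epithelial line implies. Of 10 leukocyte markers, 0 rose and 8 lay below the median of all values in every sample. The list's mean level was 2.12 to 2.30 in the control and 2.05 to 2.17 in the shFRY samples. PTPRC, the pan-leukocyte gene, fell at its brightest probe set from 3.19 ± 0.42 to 2.13 ± 0.19 (SD, n = 3 each; limma adjusted p = 0.00598). Over probe sets it was called lower at 2 of its 5, and the other 3 did not pass. Of 8 fibroblast markers 3 fell (LUM, DCN and COL3A1) and 0 rose. Their list's mean level was 3.72 to 4.02 in the control and 2.79 to 2.91 in the shFRY samples. From control to shFRY, the mean of LUM went from 5.16 to 1.22, of DCN from 7.14 to 4.35 and of COL3A1 from 5.02 to 3.20. Of 6 endothelial markers TEK rose (mean 1.73 in control, 3.58 in shFRY) and KDR fell (mean 5.80 in control, 3.35 in shFRY). Each group is a clone of an epithelial line. Whether other cell types were present was not tested. In bulk RNA, fewer cells making a gene and less of its RNA per cell cannot be told apart. The part of the fibroblast and endothelial genes in the class I results was not tested.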

How the data were processed

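Each of the 6 samples was hybridised to a 1-colour array of its own. The authors deposited log2 values made with RMA, per the submitters' processing notes. Its software and settings: not given in the sources used here. As usually run, RMA makes the arrays' distributions alike, so a shift of all genes could not be seen; array medians were 3.02 to 3.06. It compresses changes of dim probe sets, and the number of arrays limits the precision. No depth applies to arrays.

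The values were used as deposited. Probe sets were named through the platform annotation, which can be old, with symbols updated by Entrez ID (41037 of 41091 probe sets with 1 symbol matched RefSeq, GRCh38.p14). The 62 control probe sets were left out of both limma fits. The fit over genes used only probe sets with 1 symbol, leaving out those with no symbol and the 1801 with several. Groups come from the titles. limma 3.58.1 in R 4.3.3 (lmFit, eBayes, no filter) compared shFRY with control over 54613 probe sets, and again over 19775 genes, each represented by its brightest probe set, with Benjamini-Hochberg adjustment, a threshold of 0.05 and 4 residual degrees of freedom. For the lists of related genes, values are from the fit over genes unless said to be over probe sets. Differences within a sample were compared by two-sided exact permutation tests.

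Some genes of the lists are not reported here. The 9 genes, the lists and the tests were chosen with earlier results of these data known. Named genes are all 9 at every probe set, FRY, PSMB5 to PSMB7, up to 4 called genes per list by size of change, and the 3 genes most correlated with HLA-B and TAP1. HLA-G, TAPBP, TPP2, NLRC5, IRF1, the RFX genes, KRT5, CDH1 and EPCAM were named outside this rule after their values were seen.

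The alternatives were median centring, quantile normalization, trend and robust options, the upper 50% of probe sets, array weights, the replicate number as a block, a beta-actin covariate, leaving out _x_at and _s_at probe sets, averaging the probe sets of each gene, and leaving out each sample. On simulated data over 54613 probe sets, the comparison of shFRY with control by probe set recovered 10.4%, 49.3% and 90.9% of those changed 1.5-fold, 2-fold and 4-fold. Far fewer probe sets were changed in the simulation, which gave 103 calls against 12617 in the data. With fewer calls the adjustment is stricter, so these shares do not give the recovery in the data.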

Additional observations from a re-analysis of the deposited data

How the results depend on the processing

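Leaving out each sample in turn, 10 to 13 of the 23 probe sets were called higher and 0 to 1 lower, against 14 and 1 with all samples, and 6 to 7 genes rose, against 7. Centring, quantile normalization, trend and robust options, the upper 50% of probe sets, array weights and the replicate block gave 12 to 17 probe sets called higher; these, and averaging the probe sets of each gene, gave 6 to 8 genes. The 1 probe set called lower, TAP2 208428_at, was not called (0) with median centring, array weights, the replicate block, the beta-actin covariate, without _x_at and _s_at probe sets, or in the upper 50%, which does not hold it. With the beta-actin covariate 1 probe set and 3 genes were called higher; the cause was not tested. Without _x_at and _s_at probe sets, 7 of the 23 probe sets and 5 of the 9 genes remained. Of these, 3 probe sets (PSMB9 and 2 of TAP2) and 2 genes were called higher. HLA-E 200904_at (0.29, limma adjusted p = 0.121) and HLA-F 221978_at (-0.01, limma adjusted p = 0.982) remained without a call. Every call of a heavy chain gene was thus at an _x_at probe set. With the covariate HLA-C 211799_x_at was at -0.0444. HLA-F 221978_at changed sign with median centring (0.0210), quantile normalization (0.00697) and array weights (0.0209), and ranged from -0.112 to 0.0828 when 1 sample was left out. B2M 201891_s_at passed with trend and robust options (limma adjusted p = 0.00249) and in the upper 50% (0.0469, limma adjusted p), and B2M 216231_s_at passed in 5 alternatives (limma adjusted p from 0.0157 to 0.0466).

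Of the 14 probe sets called higher, 10 kept the call in every alternative in which they were tested, apart from the covariate; among those 10, PSMB9 204279_at kept it there too. Replicate numbers are shared by the groups. The deviations of same-numbered samples from their group means correlated at r = 0.00302, -0.00427 and 0.0388 over probe sets. For samples of different number, r was -0.0293 to 0.0269. Whether same-numbered samples were handled together was not tested. With the replicate block 13 probe sets and 6 genes were higher, HLA-E 200905_x_at losing its call (0.0818, limma adjusted p), and the calls over all probe sets went from 12617 to 11351.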

Other observations

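Probe sets 208729_x_at and 211911_x_at, both assigned to HLA-B, held the same value of 6.57832 in control sample 3, while they differed in the other 5 samples.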
